A study of Mus musculus with 10 samples.

Results

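The TGF-beta core genes described here are 10 genes chosen by name and role, a rule that uses no measured value although earlier results of these data were known: the ligands Tgfb1, Tgfb2 and Tgfb3, the receptors Tgfbr1, Tgfbr2 and Tgfbr3, and the intracellular mediators Smad2, Smad3, Smad4 and Smad7. All 10 were found among the 52459 genes of the table. RNA sequencing was performed on whole liver tumors (hepatocellular carcinoma, HCC) of 5 *MYC*-HCC and 5 *MYC*/*Twist1*-HCC samples. All mice were on the FVB/N background and carried LAP-tTA, a tetracycline-regulated activator driven by a liver-enriched promoter that is active in hepatocytes, together with the TetO-*MYC* transgene. The *MYC*/*Twist1*-HCC mice carried in addition TRE-*Twist1*/Luc, in which 1 bidirectional promoter drives mouse Twist1 and luciferase. Doxycycline, which keeps these transgenes off, was given in drinking water through mating and early life and then withdrawn, and tumors were taken when tumor burden caused morbidity. Animal ages at collection are not given in the sources used here. The comparison asks what Twist1 adds to a *MYC*-driven liver tumor.

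TGF-beta ligands are secreted in a latent form and are released by proteases, integrins or thrombospondin. The released dimer binds the type II receptor Tgfbr2, which phosphorylates the type I receptor Tgfbr1, while Tgfbr3 (betaglycan) presents ligand to them. Tgfbr1 phosphorylates Smad2 and Smad3, which join Smad4 and enter the nucleus, and Smad7 is induced by the signal and shuts the receptors down. In liver the pathway is known for restraining hepatocyte growth, for activating stellate cells and for inducing epithelial-mesenchymal transition in carcinoma, a program that Twist1 also drives.

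The samples are called *MYC* tumors 1 to 5 and *MYC*/*Twist1* tumors 1 to 5, the former numbered by column because their headings do not tell them apart. The libraries held an estimated 19.2 to 23.8 M reads. Levels are FPKM, fragments per kilobase of gene model and per M reads, so that levels can be compared between genes per length. Twist1 checked the labels: it was between 0 and 0.29 FPKM in *MYC*-HCC and between 1.62 and 77.19 FPKM in *MYC*/*Twist1*-HCC, without overlap. Alb, the plasma albumin of hepatocytes, was at 368.23 to 3737.2 FPKM in *MYC*-HCC and 1313.46 to 7146.52 FPKM in *MYC*/*Twist1*-HCC, so hepatocyte RNA was abundant in every sample. *MYC* tumor 4 stood apart: the summed level of 12 endothelial markers was 75.4 FPKM there and 12.4 to 21.2 FPKM in the other 4. This tumor was also the highest of its group for 8 of 9 hepatocyte markers, and its macrophage marker sum, 265.6 FPKM, was the lowest of the group. Results that rest on it are therefore also given without it. Each library is taken as 1 tumor, although the labels do not state that each came from a separate animal, and the p-values then measure only the spread between these samples.

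None of the 9 members that could be tested passed the test in either direction. The test was a limma linear model on log2(FPKM + 0.1) over the 12146 genes that reached 0.5 FPKM in 5 or more of the libraries, with a threshold of 0.05 on the Benjamini-Hochberg adjusted p. Across the 12146, the test called 3 higher in *MYC*/*Twist1*-HCC (0.0247%) and 0 lower (0%), so the members' count of 0 matches a background close to 0. Before adjustment, p was under 0.05 for 1 member in the higher direction (Tgfbr2) and 0 in the lower, against 7.83% and 8.51% of all genes. The log2 difference, *MYC*/*Twist1*-HCC minus *MYC*-HCC, was positive for 2 members and negative for 7, beside 5569 and 6577 of all genes tested. The member median was -0.16, beside -0.04 over all genes tested. Twist1 itself, with a log2 difference of 5.15, did not pass the test either (limma adjusted p = 0.0910), so a gene that does not pass is not shown to be unchanged. In bulk tumors fewer cells of a type and less RNA per cell cannot be told apart.

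**Figure D1:**
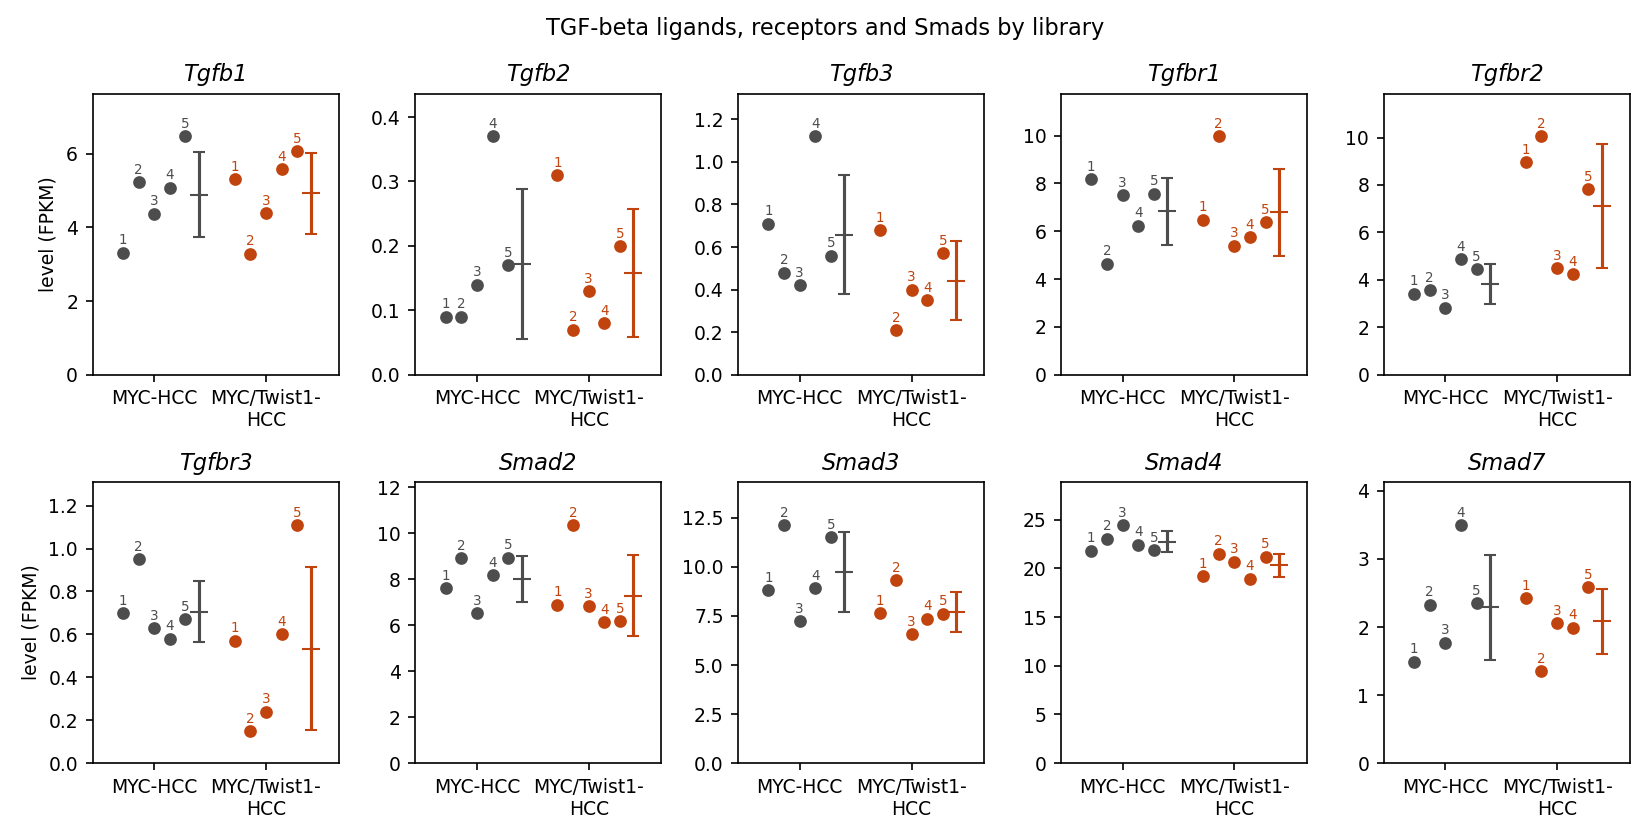
Level in FPKM of each of the 10 genes, every y axis from 0, in 5 MYC-HCC (grey) and 5 MYC/Twist1-HCC (orange) libraries. Points are libraries with their numbers and bars give the mean and SD of each group (n = 5): Tgfbr2 had a mean of 3.82 FPKM in MYC-HCC and 7.11 FPKM in MYC/Twist1-HCC, and for Smad4 alone the groups did not overlap.

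The order of the levels was set by the Smads and by Tgfbr1 and Tgfbr2. Smad4 was the most abundant member, with a mean over 10 libraries of 21.5 FPKM, and was above Smad3 in 10 of 10 libraries. Smad3 (8.71 FPKM), Smad2 (7.65 FPKM), Tgfbr1 (6.81 FPKM), Tgfbr2 (5.47 FPKM) and Tgfb1 (4.91 FPKM) came next, and neighbours in this run exceeded each other in 5 to 8 of 10 libraries. The place of Tgfbr2 in this run depended on the group, since it was above Tgfb1 in 1 of 5 *MYC* tumors and in 4 of 5 *MYC*/*Twist1* tumors. Smad7 followed at 2.19 FPKM, below Tgfb1 in 10 of 10 libraries. Tgfbr3 (0.62 FPKM) and Tgfb3 (0.55 FPKM) did not separate, with Tgfbr3 above in 5 of 10 libraries. Tgfb2 was lowest at 0.165 FPKM and was below Tgfb3 in 10 of 10 libraries.

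Among the ligands, Tgfb1 (chr7:25687002-25705077, plus strand, here and throughout in GRCm38 with GENCODE vM21), the isoform made by many cell types including macrophages and platelets, carried most of the ligand RNA and had almost the same mean in both groups. Its level in *MYC* tumors 1 to 5 was 3.31, 5.22, 4.37, 5.08 and 6.47 FPKM. In *MYC*/*Twist1* tumors 1 to 5 it was 5.31, 3.29, 4.38, 5.58 and 6.07 FPKM. The groups spanned almost the same range, and their lowest samples, 3.31 and 3.29 FPKM, nearly coincided. The means were 4.89 ± 1.16 and 4.93 ± 1.10 FPKM (SD, n = 5), a log2 difference of 0.01 with a 95% interval of -0.47 to 0.49 and a limma adjusted p of 0.984. The sign of this difference was not stable, being negative in 6 of 18 alternative analyses.

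Tgfb1 made up 77.3% to 92.8% of the summed FPKM of the 3 ligands in each library. The lowest shares were 77.3% in *MYC* tumor 4 and 80.5% in *MYC* tumor 1, and the highest was 92.8% in *MYC*/*Twist1* tumor 4. The genes whose pattern over the 10 libraries was most like that of Tgfb1 were H2-DMb1, a chaperone subunit of MHC class II loading (r = 0.96), Hcls1, a cytoskeletal adaptor of blood cells (r = 0.94), and Ptafr, the receptor for platelet-activating factor (r = 0.90). For each member the 3 genes with the highest r of all genes tested are given, so high values follow from the choice. The values are Pearson correlations of log2(FPKM + 0.1) over 10 libraries that share composition and depth, given as a description. Beside them, the summed level of 8 macrophage markers was 265.6 to 941.6 FPKM in *MYC*-HCC and 370.9 to 1199.9 FPKM in *MYC*/*Twist1*-HCC, with 6 of 8 markers positive in log2 difference and 0 of 8 past the test. Under the library quality weights described below 2 of 8 were higher, beside 8.3% of all genes. The part of macrophages in the Tgfb1 level was not tested.

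Tgfb3 (chr12:86056745-86079041, minus strand), an isoform of mesenchymal cells, was low and overlapping. It was at 0.71, 0.48, 0.42, 1.12 and 0.56 FPKM in *MYC* tumors 1 to 5. It was at 0.68, 0.21, 0.4, 0.35 and 0.57 FPKM in *MYC*/*Twist1* tumors 1 to 5. Tumors 2, 3 and 4 of the latter lay below every *MYC* tumor, while tumors 1 and 5 lay inside the *MYC*-HCC range. The log2 difference was -0.49 (SE 0.35, limma adjusted p = 0.488), and it was -0.30 without *MYC* tumor 4, the highest of that group, or without *MYC*/*Twist1* tumor 2, the lowest of the other. The values rest on about 17 to 79 reads a library. Over the 10 libraries Tgfb3 was most like Gucy1a3, a subunit of soluble guanylate cyclase (r = 0.94), Stard8 (r = 0.92) and Tmem50b (r = 0.88).

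Tgfb2 (chr1:186622792-186705989, minus strand), the isoform that depends most on Tgfbr3 for binding, stayed below the filter and was not tested with the others. Its levels were 0.09, 0.09, 0.14, 0.37 and 0.17 FPKM in *MYC* tumors 1 to 5 and 0.31, 0.07, 0.13, 0.08 and 0.2 FPKM in *MYC*/*Twist1* tumors 1 to 5. About 10 to 45 reads a library lie behind them. The highest library of each group, *MYC* tumor 4 and *MYC*/*Twist1* tumor 1, was also the highest of its group for Tgfb3. Those libraries also held the highest sums of the 11 stellate and fibroblast markers, 99.98 FPKM in *MYC* tumor 4 and 68.6 FPKM in *MYC*/*Twist1* tumor 1, against 26.3 to 53.9 and 8.8 to 43.4 FPKM in the other libraries of each group. The part of these cells in the Tgfb2 and Tgfb3 levels was not tested. In a fit with no filter the log2 difference of Tgfb2 was -0.07 (limma adjusted p = 0.959).

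Of the receptors, Tgfbr2, the type II receptor that binds ligand and starts the kinase cascade, had the largest difference among the members and the only 95% interval that did not include 0. In *MYC* tumors 1 to 5 it was at 3.42, 3.56, 2.82, 4.88 and 4.44 FPKM. In *MYC*/*Twist1* tumors 1 to 5 it was at 8.95, 10.05, 4.48, 4.25 and 7.83 FPKM. Tumors 1, 2 and 5 lay above every *MYC* tumor, whereas tumors 3 and 4 lay inside the *MYC*-HCC range. The means were 3.82 ± 0.83 and 7.11 ± 2.63 FPKM (SD, n = 5), a 1.86-fold ratio. The log2 difference was 0.82 (SE 0.27, 95% interval 0.22 to 1.41), with an unadjusted p of 0.0115 and an adjusted p of 0.207 from limma over all genes.

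The call for Tgfbr2 depended on how the libraries were weighted. Without *MYC* tumor 4, the highest of its group, the log2 difference was 0.91 with a limma adjusted p of 0.0615, and 526 of all genes tested were then higher (4.33%) and 573 lower (4.72%). With library quality weights, which give less weight to libraries that fit poorly across genes, it was 0.97 with a limma adjusted p of 0.0205, and 8.3% of all genes were then higher and 12.1% lower. The weights ranged from 0.184 for *MYC* tumor 4 to 4.02 for *MYC* tumor 1, and the highest in *MYC*/*Twist1*-HCC was 2.29 for tumor 1. The weighted fit therefore leaned most on tumor 1 of each group. Over the 18 alternatives the adjusted p of Tgfbr2 ranged from 0.0205 to 0.408, and its difference was positive in all of them. Under quality weights 1 of 9 members was higher and 0 were lower, which lies near the background of that fit.

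**Figure D2:**
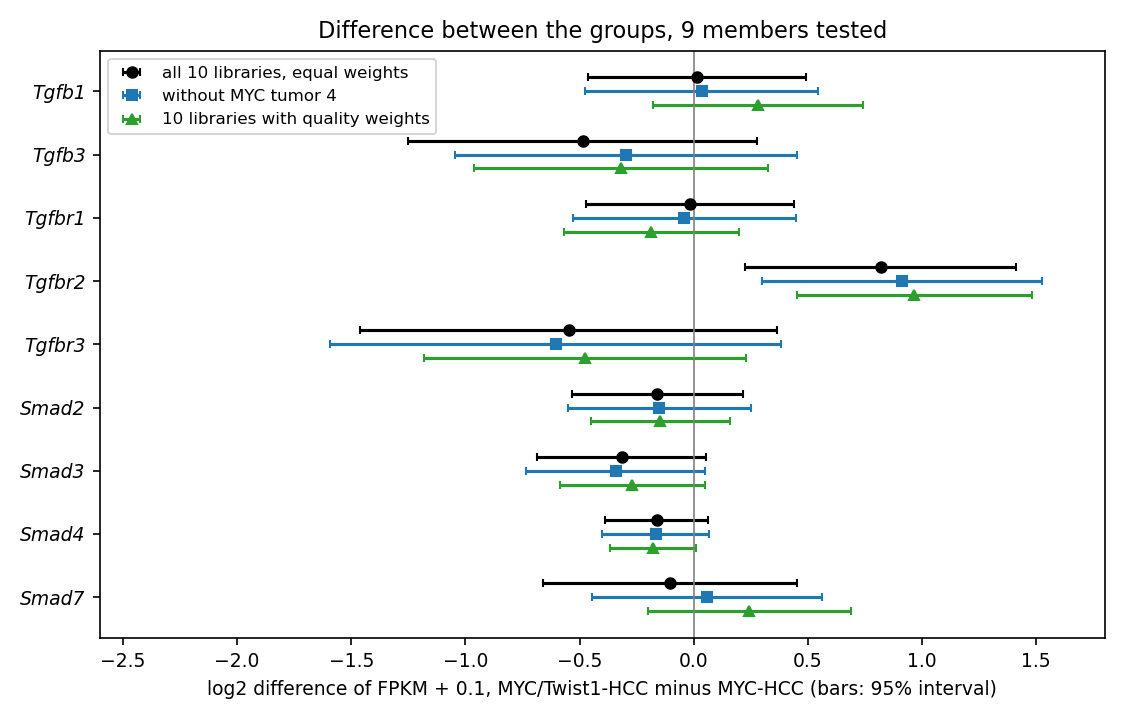
Log2 difference of FPKM + 0.1 (MYC/Twist1-HCC minus MYC-HCC, x axis) for the 9 members tested, with 95% intervals, from 10 libraries with equal weights (black circles), without MYC tumor 4 (blue squares) and with library quality weights (green triangles). Tgfbr2 lies at 0.82, 0.91 and 0.97 and its intervals stay above 0, while the intervals of the other members include 0.

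Other transcripts varied along with Tgfbr2. The genes most like it over the 10 libraries were Fn1, which encodes fibronectin (r = 0.97), Rbms1, an RNA-binding protein (r = 0.97), and Myadm, a membrane protein (r = 0.96), and without *MYC* tumor 4 the 3 values were 0.98, 0.97 and 0.97 over 9 libraries. Fn1 was at 103.58, 153.45 and 147.21 FPKM in *MYC*/*Twist1* tumors 1, 2 and 5, those high for Tgfbr2, and at 51.08 and 46.34 FPKM in tumors 3 and 4. Fn1 is a matrix gene and a known TGF-beta target, and hepatocytes also secrete it in large amounts into plasma. Twist1 was at 2.56, 26.05, 77.19, 1.62 and 2.21 FPKM in *MYC*/*Twist1* tumors 1 to 5. Tumor 3, the highest for Twist1, was inside the *MYC*-HCC range for Tgfbr2. Tumor 2, the next for Twist1, was the highest for Tgfbr2, and tumor 4 was the lowest of this group for both. The relation of Twist1 to Tgfbr2 was not tested.

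The cell type markers beside the Tgfbr2 difference were as follows. Of 9 hepatocyte markers 7 were positive in log2 difference, with sums of 1849 to 7960 FPKM in *MYC*-HCC and 4463 to 12603 FPKM in *MYC*/*Twist1*-HCC. All 5 neutrophil markers were positive (sums of 2.0 to 6.5 against 12.8 to 473.6 FPKM), as were all 5 erythroid markers (38.1 to 133.3 against 162.5 to 2084.8 FPKM), and these sums did not overlap between the groups. The 5 platelet and megakaryocyte markers summed to 0.68 to 1.67 FPKM in *MYC*-HCC and 0.81 to 41.1 FPKM in *MYC*/*Twist1*-HCC, and the 2 of them tested were positive. With all libraries 0 markers of these lists passed the test. Without *MYC* tumor 4, 4 of 5 neutrophil, 4 of 5 erythroid and 2 of 9 hepatocyte markers (Alb and Apoa1) were higher. With library quality weights 5, 5 and 3 were, with both platelet markers tested, 2 of 10 endothelial markers and 0 of 8 stellate and fibroblast markers. In the weighted fit 2 of 8 macrophage markers (Csf1r and Cd14) and 0 of 5 Kupffer cell markers were also higher. Of 3 cholangiocyte markers tested, 1 (Krt7) was lower there. Of all genes, 8.3% were higher and 12.1% lower in that fit. Of 10 endothelial markers tested 9 were positive and of 8 stellate and fibroblast markers 2 were. Endothelial sums were 12.4 to 75.4 against 15.8 to 50.3 FPKM, and stellate and fibroblast sums 26.3 to 99.98 against 8.8 to 68.6 FPKM, both overlapping. No marker of these lists was at 0 in every library. In *MYC*/*Twist1* tumors 1 to 5 the endothelial sums were 50.3, 15.8, 21.7, 19.5 and 25.1 FPKM. The stellate and fibroblast sums were 68.6, 8.8, 43.4, 29.9 and 41.7 FPKM in the same order. Among the tumors high for Tgfbr2, tumors 1 and 5 thus had the highest endothelial sums of their group and tumor 2 the lowest. Tumor 2 also had the lowest stellate and fibroblast sum of all 10 libraries. The part of each cell type in the Tgfbr2 difference was not tested.

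Tgfbr2 lies on the minus strand of mouse chromosome 9 at chr9:116084293-116175360. Its promoter is shown because Tgfbr2 had the largest difference of the 10 members and because both Twist1, a basic helix-loop-helix factor that binds E-boxes, and the Smads bind short motifs. The sequence is the 250 bases before the RefSeq transcript start (GRCm38.p6, chr9:116175364-116175613, minus strand, written 5′ to 3′ along the gene), in lower case, with the letters CAGAC, the core of a Smad binding element, in capitals.
Tgfbr2 promoter: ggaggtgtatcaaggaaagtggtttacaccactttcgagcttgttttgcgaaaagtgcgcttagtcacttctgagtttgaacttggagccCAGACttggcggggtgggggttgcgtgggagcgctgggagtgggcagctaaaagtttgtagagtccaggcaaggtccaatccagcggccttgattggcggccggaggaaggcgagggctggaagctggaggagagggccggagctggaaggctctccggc
The CAGAC match begins 160 bases before the start, and CAGAC, read on both strands, is in 42.2% of 32851 RefSeq promoter windows of this length. The E-box letters CANNTG, which read the same class on either strand and do not overlap CAGAC, are absent from these 250 bases of Tgfbr2 and present in 66.2% of the windows. With the 50 bases after the start included, Tgfbr2 holds 1 E-box, CAGCTG, beginning at base 17 of the transcript, and 72.3% of the longer windows hold at least 1. These are matches of letters, and binding was not measured.

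Tgfbr1 (chr4:47353222-47414931, plus strand), the type I receptor kinase that phosphorylates Smad2 and Smad3, had almost the same mean in both groups. In *MYC* tumors 1 to 5 it was at 8.19, 4.65, 7.52, 6.24 and 7.57 FPKM, and in *MYC*/*Twist1* tumors 1 to 5 at 6.48, 9.97, 5.4, 5.74 and 6.38 FPKM. Tumor 2 was well above the other *MYC*/*Twist1*-HCC samples, which lay within the *MYC*-HCC range. The means were 6.83 ± 1.41 and 6.79 ± 1.83 FPKM (SD, n = 5) and the log2 difference was -0.02, with a 95% interval of -0.47 to 0.44 and a limma adjusted p of 0.977. Its sign was positive in 6 of 18 alternatives. The nearest patterns to Tgfbr1 were Zfp354a, a zinc finger gene (r = 0.88), Mat2b, a regulatory subunit of methionine adenosyltransferase (r = 0.87), and Tmem168 (r = 0.86).

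Since both receptors are needed in a signaling complex, their ratio was taken in each library. The Tgfbr2 to Tgfbr1 ratio of FPKM was 0.418, 0.766, 0.375, 0.782 and 0.587 in *MYC* tumors 1 to 5 and 1.38, 1.01, 0.830, 0.740 and 1.23 in *MYC*/*Twist1* tumors 1 to 5. Tgfbr2 thus exceeded Tgfbr1 in tumors 1, 2 and 5 of *MYC*/*Twist1*-HCC and in no *MYC* tumor. The groups overlapped, because tumor 4 lay below *MYC* tumors 2 and 4. No test was run on the ratio.

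**Figure D3:**
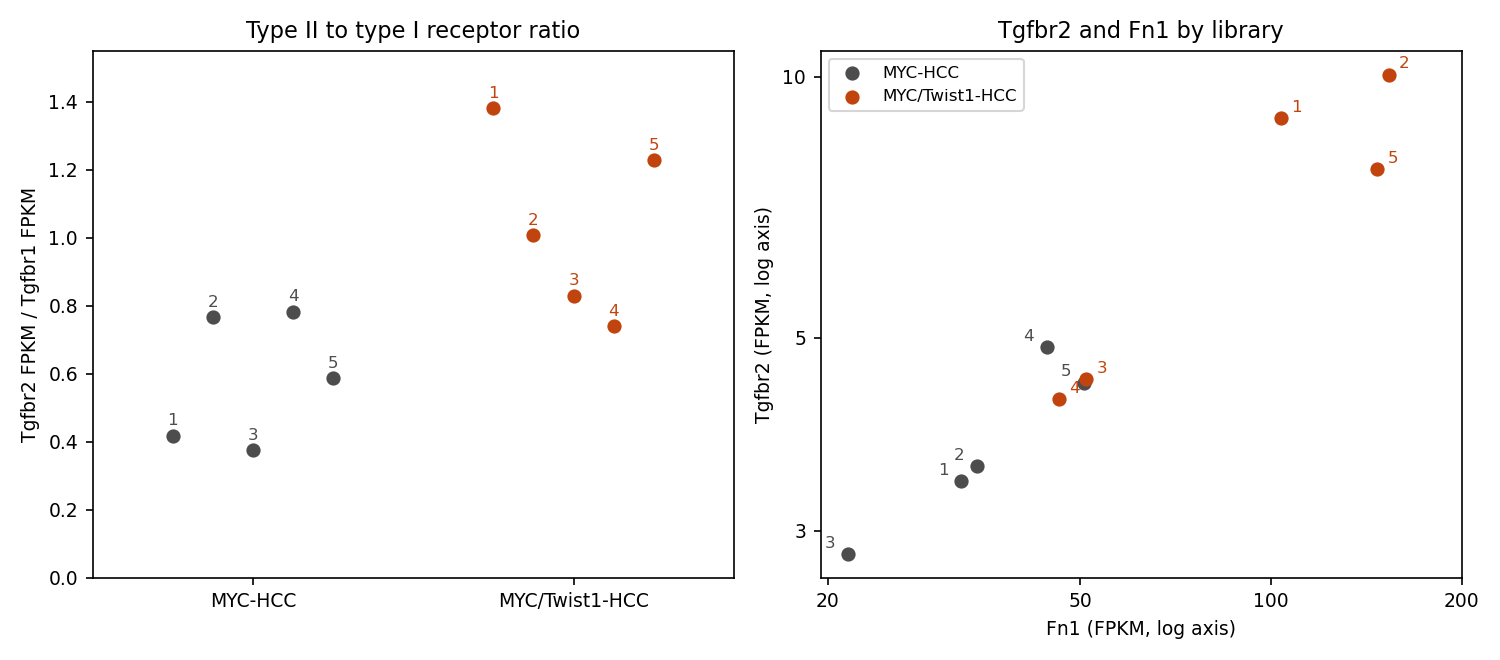
Left, ratio of Tgfbr2 to Tgfbr1 FPKM in each library (y axis from 0), with library numbers. Right, Tgfbr2 against Fn1 in FPKM on log axes: tumors 1, 2 and 5 of MYC/Twist1-HCC (orange) lie at Fn1 levels of 103.58 to 153.45 FPKM, and tumors 3 and 4, at 51.08 and 46.34 FPKM, lie close to the highest MYC-HCC libraries (grey).

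Tgfbr3 (chr5:107106570-107289629, minus strand), the co-receptor betaglycan, was scarce, with a wide spread in *MYC*/*Twist1*-HCC. It was at 0.7, 0.95, 0.63, 0.58 and 0.67 FPKM in *MYC* tumors 1 to 5. It was at 0.57, 0.15, 0.24, 0.6 and 1.11 FPKM in *MYC*/*Twist1* tumors 1 to 5. Tumor 5 was the highest of all 10 libraries and tumors 1, 2 and 3 were below every *MYC* tumor, so that the groups overlapped on both sides. The log2 difference was -0.55 (SE 0.41, limma adjusted p = 0.515), or -0.27 without *MYC*/*Twist1* tumor 2 and -0.83 without *MYC*/*Twist1* tumor 5, from about 23 to 154 reads a library. The nearest patterns were those of Tle2, a transcriptional corepressor (r = 0.91), Gcc1, a Golgi protein (r = 0.91), and Ucp2, a mitochondrial carrier (r = 0.91).

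Among the Smads, Smad4 (chr18:73639009-73703780, minus strand), the common partner of all receptor-activated Smads, was the member whose groups did not overlap. Its levels were 21.83, 23.05, 24.46, 22.43 and 21.85 FPKM in *MYC* tumors 1 to 5. They were 19.19, 21.49, 20.68, 18.94 and 21.21 FPKM in *MYC*/*Twist1* tumors 1 to 5. Every *MYC*/*Twist1*-HCC sample lay below every *MYC* tumor, and the closest samples of the groups were 21.49 and 21.83 FPKM. The means were 22.7 ± 1.09 and 20.3 ± 1.17 FPKM (SD, n = 5), *MYC*-HCC being 1.12-fold higher. The log2 difference was -0.16 (SE 0.10, 95% interval -0.39 to 0.06) and the limma adjusted p was 0.440. Of all genes tested, 1.67% were lower without overlap and 2.35% higher without overlap, beside 1 and 0 of the 9 members tested. Between 1598 and 2008 reads a library stand behind Smad4, against 17 to 79 for Tgfb3. The nearest patterns to Smad4 were Gm1943 (r = 0.89), Gm26490 (r = 0.88) and Snord55, a small nucleolar RNA (r = 0.88).

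Smad2 and Smad3, the receptor-activated Smads of the TGF-beta and activin branch, had negative differences that did not pass the test. Smad3 (chr9:63646767-63757994, minus strand) was at 8.82, 12.14, 7.24, 8.9 and 11.52 FPKM in *MYC* tumors 1 to 5 and at 7.65, 9.32, 6.57, 7.36 and 7.62 FPKM in *MYC*/*Twist1* tumors 1 to 5. The groups overlapped, with *MYC* tumors 2 and 5 above every *MYC*/*Twist1*-HCC sample. The log2 difference of Smad3 was -0.32 (SE 0.17, unadjusted p = 0.0865, adjusted p = 0.365 from limma), and its adjusted p ranged from 0.195 to 0.589 over the alternatives.

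Smad2 (chr18:76241580-76310963, plus strand) was at 7.62, 8.9, 6.53, 8.16 and 8.93 FPKM in *MYC* tumors 1 to 5 and at 6.89, 10.36, 6.82, 6.13 and 6.17 FPKM in *MYC*/*Twist1* tumors 1 to 5. Tumor 2 was the highest of all 10 libraries, while tumors 4 and 5 were below every *MYC* tumor. The log2 difference of Smad2 was -0.16 (SE 0.17, limma adjusted p = 0.657), and -0.29 without *MYC*/*Twist1* tumor 2. The nearest patterns to Smad2 were Yap1, the transcriptional coactivator of the Hippo pathway (r = 0.96), Atr, a DNA damage kinase (r = 0.94), and Ankrd28 (r = 0.93), and those to Smad3 were Luzp1 (r = 0.96), Srek1, a splicing regulator (r = 0.95), and Zfp143, a zinc finger transcription factor (r = 0.94). The ratio of Smad3 to Smad2 was 1.09 to 1.36 in *MYC*-HCC and 0.900 to 1.24 in *MYC*/*Twist1*-HCC, with tumors 2 and 3 below 1.

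Smad7 (chr18:75367529-75395935, plus strand), the inhibitory Smad that TGF-beta itself induces, overlapped throughout. It was at 1.49, 2.33, 1.77, 3.5 and 2.35 FPKM in *MYC* tumors 1 to 5 and at 2.42, 1.35, 2.06, 1.99 and 2.59 FPKM in *MYC*/*Twist1* tumors 1 to 5. *MYC* tumor 4 was the highest and *MYC*/*Twist1* tumor 2 the lowest of all. The log2 difference was -0.10 (SE 0.25, limma adjusted p = 0.858) and turned to 0.06 without *MYC* tumor 4. The genes most like Smad7 were Armcx2 (r = 0.95), Adcy4, an adenylate cyclase (r = 0.95), and Notch3, a receptor of mural cells (r = 0.94). The endothelial sum was highest in the same *MYC* tumor, and the part of endothelial or mural cells in the Smad7 level was not tested.

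*MYC*/*Twist1* tumor 2 held an extreme of its group for all 10 members. It was the highest of its group for Tgfbr1, Tgfbr2, Smad2, Smad3 and Smad4 and the lowest for Tgfb1, Tgfb2, Tgfb3, Tgfbr3 and Smad7. Each of the other 9 libraries was highest or lowest of its group for at most 5 members. In the same tumor the summed levels of macrophage markers (370.9 FPKM), Kupffer cell markers (27.6 FPKM), endothelial markers (15.8 FPKM) and stellate and fibroblast markers (8.8 FPKM) were the lowest of the 5 *MYC*/*Twist1*-HCC samples. Hepatocyte markers were divided there: 3 of 9 (Alb, Apob and Hnf4a) were at their highest in this group, and 5 of 9 (Ttr, Cps1, Cebpa, Tat and Cyp2e1) at their lowest. The part of these cell types in the pattern was not tested.

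The other genes of the pathway, in 7 lists of 93 genes, gave 65 that could be tested, of which 0 passed the test in either direction. Before adjustment, p was under 0.05 for 11 in the higher and 3 in the lower direction, against 7.83% and 8.51% of all genes. The log2 difference was positive for 43 and negative for 22, beside 5569 and 6577 of all genes tested. The median was 0.29, beside -0.04 over all genes tested. Without *MYC* tumor 4 the count past the test was 4 higher and 0 lower, and with library quality weights it was 14 higher and 4 lower of 65, beside 4.33% and 4.72%, and 8.3% and 12.1%, of all genes. Among the genes higher without *MYC* tumor 4 were Thbs1, Nedd4l and Bhlhe40.

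**Figure D4:**
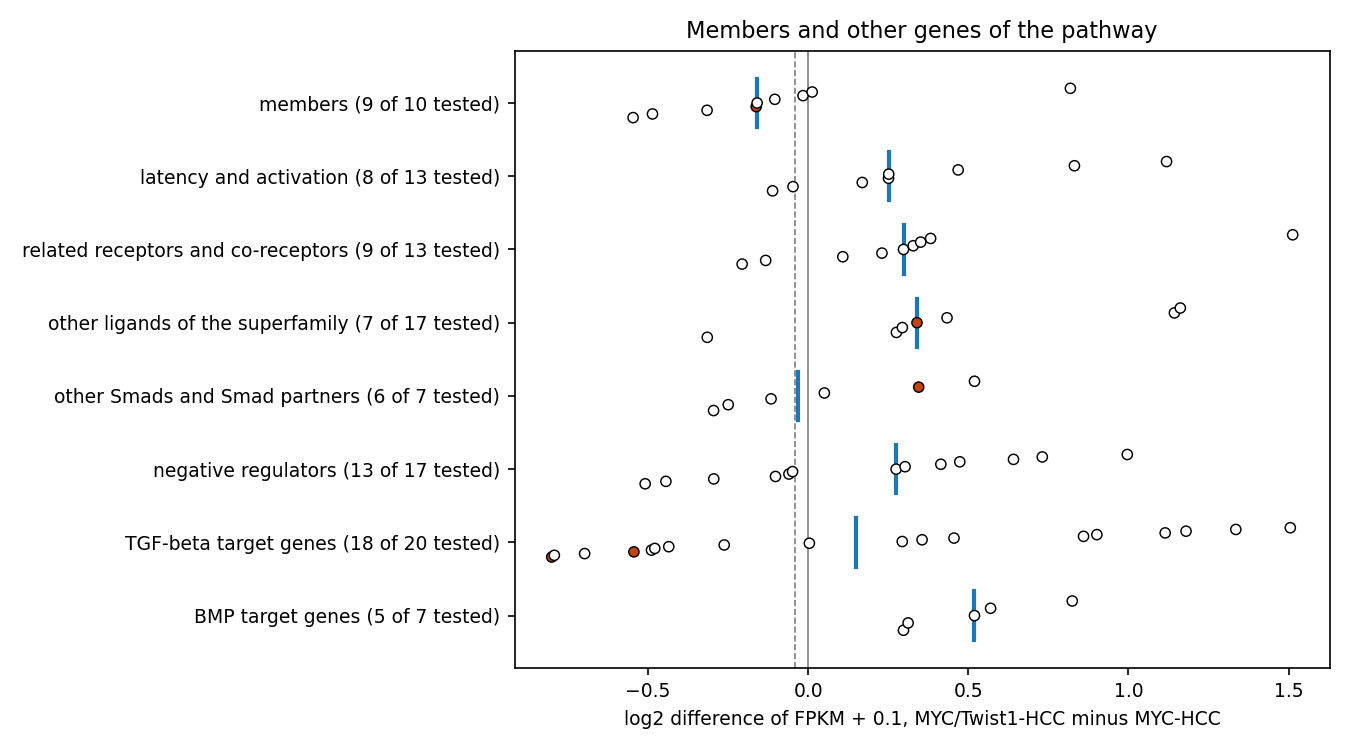
Log2 difference of FPKM + 0.1 (MYC/Twist1-HCC minus MYC-HCC, x axis) of each tested gene by list, with genes whose groups do not overlap filled orange, the median of each list as a blue bar, 0 as a solid line and the median of all genes tested, -0.04, as a dashed line. The member median of -0.16 lies below 0, while 6 of the 7 other lists have a positive median.

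Of 13 latency and activation genes 8 were tested and 6 were positive. Furin, the protease that cuts the TGF-beta precursor, was at 24.1 ± 3.48 FPKM (SD, n = 5) without Twist1 and 33.3 ± 4.06 FPKM (SD, n = 5) with it, a log2 difference of 0.47 (limma adjusted p = 0.178). *MYC*/*Twist1* tumor 2, at 27.13 FPKM, was the sample within the *MYC*-HCC range, whose top was 29.1 FPKM in *MYC* tumor 5. Thbs1, thrombospondin 1, which releases latent TGF-beta, was at 0.49, 0.28, 0.34, 1.9 and 0.44 FPKM in *MYC* tumors 1 to 5 and 3.65, 0.77, 0.9, 0.88 and 1.51 FPKM in *MYC*/*Twist1* tumors 1 to 5. Without *MYC* tumor 4 the groups of Thbs1 no longer overlapped, and its log2 difference moved from 1.12 (limma adjusted p = 0.318) to 1.53 (limma adjusted p = 0.0499, and 0.0238 to 0.540 over the alternatives). Thbs1 is also a platelet alpha-granule protein, and the platelet marker sum was highest, at 41.1 FPKM, in the same tumor 1; the part of platelets in the Thbs1 difference was not tested. Emilin1, an inhibitor of precursor processing, and Nrros, which tethers latent TGF-beta on myeloid cells, had log2 differences of 0.83 and 0.25 (limma adjusted p = 0.323 and 0.582).

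Of 13 related receptors and co-receptors 9 were tested, 7 positive and 2 negative. Hfe2, hemojuvelin, the bone morphogenetic protein (BMP) co-receptor of iron sensing in hepatocytes, was at 11.96 ± 10.2 FPKM without Twist1 and 27.6 ± 14.9 FPKM with it (SD, n = 5; log2 difference 1.51, limma adjusted p = 0.285). Hfe2 varied widely within both groups, from 1.87 to 28.39 and from 12.63 to 45.28 FPKM. The activin and BMP type I receptors Acvr1b and Acvr1 had log2 differences of 0.38 and 0.33 (limma adjusted p = 0.300 and 0.347), and the type II receptor Acvr2a had one of -0.21 (limma adjusted p = 0.527).

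Of 17 other ligands of the superfamily 7 were tested and 6 were positive. Gdf15, a stress-induced divergent family member, was at 6.38, 6.58, 6.51, 5.8 and 5.83 FPKM in *MYC* tumors 1 to 5 and 7.69, 8.56, 8.62, 7.43 and 7.23 FPKM in *MYC*/*Twist1* tumors 1 to 5. Its groups did not overlap, with means of 6.22 ± 0.38 and 7.91 ± 0.65 FPKM (SD, n = 5), a log2 difference of 0.34 and a limma adjusted p of 0.215. Gdf11, an activin-like ligand, and Inha, the inhibin alpha subunit, had log2 differences of 1.14 and 1.16 that rested on *MYC* tumor 4, listed at 0.21 FPKM for Gdf11 and 0 for Inha. Without that library the log2 differences were 0.35 and 0.18. Inhbe, the activin E subunit made in liver, was at 11.63 FPKM in *MYC* tumor 4 and at 2.62 to 6.45 FPKM in the other 9 libraries. Its log2 difference was -0.32 (limma adjusted p = 0.671) and -0.032 without that tumor. Nodal, a ligand of embryonic patterning that signals through Smad2 and Smad3, was below the filter and was chosen after its values were seen: it was at 0.04 to 0.23 FPKM in *MYC*-HCC and 0.29 to 1.8 FPKM in *MYC*/*Twist1*-HCC, without overlap. In a fit with no filter the log2 difference of Nodal was 1.84 (limma adjusted p = 0.276).

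Of 7 other Smads and Smad partners 6 were tested, 3 in each direction. Smad1, a Smad of the BMP branch, was at 3.81, 4.78, 3.73, 4.53 and 4.88 FPKM in *MYC* tumors 1 to 5 and at 5.46, 5.87, 5.06, 4.91 and 6.39 FPKM in *MYC*/*Twist1* tumors 1 to 5. The groups of Smad1 did not overlap, although *MYC* tumor 5 and *MYC*/*Twist1* tumor 4 nearly met, and the log2 difference was 0.34 (SE 0.14, limma adjusted p = 0.267). Smad5, of the same branch, had a log2 difference of -0.25 (limma adjusted p = 0.420), Zfyve9, the anchor that brings Smad2 and Smad3 to the receptor, -0.30 (limma adjusted p = 0.461), and Smad6, the inhibitory Smad of the BMP branch, 0.52 (limma adjusted p = 0.470).

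Of 17 negative regulators 13 were tested, 7 positive and 6 negative. Nedd4l, a ubiquitin ligase of activated Smad2 and Smad3, was at 2.63, 3.05, 2.71, 6.9 and 3.4 FPKM in *MYC* tumors 1 to 5 and 5.24, 4.57, 6.37, 5.04 and 6.48 FPKM in *MYC*/*Twist1* tumors 1 to 5. With the exception of *MYC* tumor 4, above all others, the groups of Nedd4l were apart. Its log2 difference was 0.64 (limma adjusted p = 0.261) with all libraries and 0.88 (limma adjusted p = 0.0212, and 0.0106 to 0.466 over the alternatives) without *MYC* tumor 4. Fkbp1a, which holds the type I receptor inactive, had a log2 difference of -0.44 (limma adjusted p = 0.291), and the Smad corepressors Skil and Ski had differences of 0.47 and 0.41 (limma adjusted p = 0.313 and 0.333).

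Of 20 TGF-beta target genes 18 were tested, 10 positive and 8 negative, with 0 past the test. The unadjusted limma p was under 0.05 for 4 higher and 2 lower, against 7.83% and 8.51% of all genes. With library quality weights 7 were higher and 2 lower, beside 8.3% and 12.1% of all genes. Klf10, the TGF-beta-inducible early gene, was at 11.68, 9.81, 15.47, 14.86 and 8.11 FPKM in *MYC* tumors 1 to 5 and 7.09, 7.64, 4.25, 7.68 and 7.28 FPKM in *MYC*/*Twist1* tumors 1 to 5. Tsc22d1, TGF-beta-stimulated clone 22, was at 11.19, 10.74, 9.76, 17.02 and 11.84 FPKM and at 9.46, 8.36, 8.37, 6.06 and 8.76 FPKM in the same order. For both, every *MYC*/*Twist1*-HCC sample lay below every *MYC* tumor, with log2 differences of -0.80 and -0.54 (limma adjusted p = 0.160 and 0.207). Fn1 and Junb, an AP-1 subunit, went the other way, with log2 differences of 1.34 and 0.90 (limma adjusted p = 0.160 and 0.199). Bhlhe40, a transcriptional repressor, was at 43.65 FPKM in *MYC* tumor 4, 5.35 to 9.44 FPKM in the other 4 *MYC* tumors and 10.16 to 15.58 FPKM in *MYC*/*Twist1*-HCC, and its log2 difference moved from 0.29 (limma adjusted p = 0.795) to 0.83 (limma adjusted p = 0.0363, and 0.0307 to 0.964 over the alternatives) without *MYC* tumor 4. Bhlhe40 is outside the naming rule and was picked with its values known.

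Of 7 BMP target genes 5 were tested and 5 were positive, with 0 past the test. Id1, an inhibitor of basic helix-loop-helix factors that pairs with the E-protein partners of Twist1, was at 3.37, 5.33, 4.9, 2.35 and 3.77 FPKM in *MYC* tumors 1 to 5 and 6.58, 7.73, 4.57, 6.45 and 9.62 FPKM in *MYC*/*Twist1* tumors 1 to 5. Only *MYC*/*Twist1* tumor 3 lay inside the *MYC*-HCC range of Id1. The log2 difference of Id1 was 0.82 (SE 0.25, limma adjusted p = 0.182). Id2 and Id3, of the same family, had log2 differences of 0.30 and 0.31 (limma adjusted p = 0.588 and 0.723).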

How the data were processed

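Total RNA of whole flash-frozen liver tumors was sequenced in 5 *MYC*-HCC and 5 *MYC*/*Twist1*-HCC libraries. The deposited values are FPKM, which the authors made from single-end reads; their processing notes name Trimmomatic, STAR with mm10, Picard, featureCounts and DESeq2, the study's methods name RSEM, and versions are not given in the sources used here. No count table was used, so the count model of the methods was replaced by limma on the log2 scale. Whether counting used strand is not given. Exons of Tgfb2, Tgfb3 and Tgfbr3 share 2.14% to 7.60% of their gene model with predicted genes.

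Depth was estimated from genes with GENCODE vM21 models under 150 bp, whose values came to whole reads (within 0.1 of a read) in 99.5% to 100% of cases, at 19.16 to 23.75 M reads; 1 read on a 1 kb model is 0.0421 to 0.0522 FPKM. Reads per member are estimates from this depth and the GENCODE model. No pair of libraries was identical.

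The group difference was fitted in limma 3.58.1 (R 4.3.3) on log2(FPKM + 0.1), two-sided, with moderated variances and a trend, Benjamini-Hochberg adjustment over all 12146 genes tested and a threshold of 0.05. A fold on this scale understates the change of low genes. Alternatives were an added 1 or 0.01, testing unfiltered genes or those averaging 1 FPKM or more, scaling by median ratios, quantile normalization, no trend, library quality weights and each library left out. The fit was tested on simulated data with normal noise of the observed size. It recovered 21 of 50 planted log2 changes of 1 (42%) and 44 of 50 of 2 (88%), with 10 false calls. Named are the members, Twist1, up to 4 genes of each pathway list with the smallest p, any list gene past the threshold, and 3 genes nearest to each member by Pearson r; others are said to be outside this rule. A pathway gene counted in the lists is not reported here by name. Members and lists were chosen with earlier results of these data known. The promoter came from RefSeq, whose table matched 5 of the 10 members. Python 3.11.15 with pandas 2.3.3 and matplotlib 3.10.9 made the tables and figures.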

Additional observations from a re-analysis of the deposited data

Results flagged for a closer look

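In 11 of 74 groups of 5 samples, over 37 genes, the highest or lowest sample lay far from the other 4 by Dixon's criterion. That criterion flags about 1 in 20 groups of independent, normally distributed values. Here it was applied to FPKM without a log scale, and the groups share the same 10 libraries, so the count cannot be set against that rate. *MYC* tumor 4 was the sample apart in 6 of the 11 groups. It was the highest of its group for Tgfb2 (0.37 FPKM), Thbs1 (1.9 FPKM), Inhbe (11.63 FPKM), Nedd4l (6.9 FPKM) and Tsc22d1 (17.02 FPKM), and it was listed at 0 FPKM for Inha. *MYC*/*Twist1* tumor 2 was far above the rest of its group for Tgfbr1 (9.97 FPKM) and Smad2 (10.36 FPKM), the kinase and 1 of its substrates. In the same group, tumor 1 was far above the others for Thbs1 (3.65 FPKM), tumor 5 for Id2 (67.35 FPKM), and tumor 3 far below them for Klf10 (4.25 FPKM).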

How the results depend on the processing

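Of the 9 members tested, 6 kept their sign wherever they were tested, 4 of them (Tgfbr2, Smad2, Smad3 and Smad4) under 18 alternatives and Tgfb3 and Tgfbr3 under 17, since a mean of 1 FPKM left both out, and Tgfbr2 was the 1 past the threshold under at least 1 of them. Library quality weights gave a log2 difference of 0.97 for Tgfbr2, the 1 member then higher, and turned Smad7 to 0.24 and Inhbe to 0.010. Under those weights 1008 of all genes were higher and 1469 lower, and 14 higher and 4 lower among the pathway genes; the cause was not tested. Tgfb1 turned to -0.0088 with quantile normalization and Tgfbr1 to 0.0011 with median-ratio scaling. With each library left out in turn, Tgfb1 ranged from -0.12 to 0.15, Tgfbr1 from -0.16 to 0.056 and Smad7 from -0.24 to 0.058. Without changing sign, Tgfb3 ranged from -0.64 to -0.30, Tgfbr3 from -0.83 to -0.27 and Smad2 from -0.29 to -0.11, the last of these weakest without *MYC*/*Twist1* tumor 4. All genes higher numbered 5 with an added 1, 1 with an added 0.01, and 1 to 526 with a library left out, where all genes lower numbered 0 to 573 and pathway genes higher 0 to 4; the highest of these came without *MYC* tumor 4, and without *MYC* tumor 5 the count higher was 32. Of 27 named pathway genes 26 kept their sign. No scaling moved the median of all genes by over 0.1 on the log2 scale. No paired analysis was possible, because the sources used here name no pairing of *MYC* with *MYC*/*Twist1* tumors. A fit with the replicate number as a block was also not possible, because the *MYC*-HCC columns carry no replicate number of their own. Depth limits Tgfb2, Tgfb3 and Tgfbr3, where few reads stand behind a value. No read counts per gene were used, so the spread between tumors is the only error given.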
